A study of Mus musculus with 4 samples.

Results

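The aminoacyl-tRNA synthetases were followed in hearts that lack PIMT, the methyltransferase encoded by Tgs1, and in floxed control hearts. Members were 36 synthetase genes taken by symbol, and a gene was kept if it had at least 10 reads in at least 1 library. All 36 passed that minimum, out of 15589 genes that passed it among 23337 listed, and the least covered member value was 194 reads, so no member lay near the limit. The 20 genes whose enzymes work in the cytosol were compared with the 16 whose symbols end in rs2, which encode mitochondrial enzymes. In mice Kars and Gars each supply both compartments from 1 gene, and both were counted as cytosolic.

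The C57BL6/J hearts were sequenced in 4 groups, each as 1 library made from the RNA of 5 hearts of male and female mice. They were PIMT fl/fl at 2 months, PIMT fl/fl at 6 months, csPIMT-/- at 2 months and csPIMT-/- at 6 months. Both genotypes carried the floxed PIMT allele, and in csPIMT-/- mice Cre under the α-myosin heavy chain promoter removed the floxed exons in cardiomyocytes only, so other heart cells keep PIMT. No group had a second library, so the ratios at each age carry a 95% counting interval (exact, from reads) that covers counting error only and not the spread between animals.

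Each synthetase joins 1 amino acid to its tRNAs, the step that supplies the ribosome. Cytosolic enzymes serve the translation of nuclear mRNAs, while mitochondrial enzymes are made from nuclear genes, imported, and charge the tRNAs used to make the respiratory chain subunits that mitochondrial DNA encodes. Several cytosolic enzymes sit together in the multisynthetase complex, held by scaffold proteins, and many cytosolic synthetase genes are known targets of ATF4, the transcription factor of the amino acid response.

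Promoter sequence was shown for the members that hold a short motif of either of these regulatory systems. RefSeq windows (GRCm38.p6, 250 bases before to 50 after the start) were given for 26 of the 36 members. The core of the amino acid response element, TGATGNAA on either strand, was in 5 of 12 cytosolic and 0 of 14 mitochondrial windows, and in 4.06% of 27025 windows of all genes. The core of the site of NRF1, a factor known for nuclear genes of mitochondrial function, GCATGCGC on either strand, was in 0 of 12 cytosolic and 3 of 14 mitochondrial windows, and in 2.80% of all. The ETS core CCGGAAG on either strand, was in 4 of 12 and 4 of 14 windows and in 9.12% of all, and is not marked. The motifs were chosen with the values known, the marked ones share no bases in these windows, and a match is a match of letters. The stretches below are written 5′ to 3′ on the gene's strand, with 30 bases on each side of the motif and the motif in capitals.
Aars (chr8:111033700-111033888, plus strand): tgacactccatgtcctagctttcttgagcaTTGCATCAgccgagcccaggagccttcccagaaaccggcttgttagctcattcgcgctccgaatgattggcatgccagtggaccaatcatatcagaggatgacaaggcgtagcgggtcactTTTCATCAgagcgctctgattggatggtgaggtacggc
Gars (chr6:55037941-55038008, plus strand): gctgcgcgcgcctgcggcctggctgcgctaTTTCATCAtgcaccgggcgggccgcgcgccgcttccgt
Iars (chr13:49682107-49682174, plus strand): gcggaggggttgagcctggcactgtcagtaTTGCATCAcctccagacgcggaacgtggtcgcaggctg
Tars (chr15:11399636-11399703, minus strand): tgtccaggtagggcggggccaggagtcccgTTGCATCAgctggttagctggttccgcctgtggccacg
Yars (chr4:129189876-129189943, plus strand): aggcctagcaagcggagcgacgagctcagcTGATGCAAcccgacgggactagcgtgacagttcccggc
Rars2 (chr4:34614876-34614943, plus strand): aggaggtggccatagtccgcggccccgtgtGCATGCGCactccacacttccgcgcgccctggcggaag
Vars2 (chr17:35667575-35667668, minus strand): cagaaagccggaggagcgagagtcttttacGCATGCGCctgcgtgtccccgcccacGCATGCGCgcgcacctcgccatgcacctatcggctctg
Wars2 (chr3:99140996-99141063, plus strand): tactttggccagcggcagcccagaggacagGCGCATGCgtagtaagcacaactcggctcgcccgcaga

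Library depth ranged from 29823073 to 40705783 reads. Tgs1, counted over the whole gene, stood at 580 and 816 normalized counts in the control pools and at 160 and 162 in the csPIMT-/- pools, ratios of 0.276 and 0.199 (limma over both ages, adjusted p = 0.016). With the GC trend subtracted, as described further on, its ratios were 0.590 and 0.486 and this call was lost, like that of every gene. All 6 cardiomyocyte markers were abundant in every pool, with summed ratios of 1.01 and 0.832. The pools were not alike in other tissue. All 5 atrial markers were more than 2-fold higher in the 2-month csPIMT-/- pool than in its control, with summed levels of 334131 and 40742 normalized counts. At 6 months the sums were 349424 and 121253, yet 3 of the 5 were past 2-fold lower and 1 was past 2-fold higher. Of 5 brown fat markers, 3 were past 2-fold higher at 2 months (Ucp1, Adipoq and Plin1), while Fabp4 was past 2-fold lower. The ratios of the brown fat list at 2 months ran from 0.313 to 458, with a median of 204, and at 6 months the median was 0.399. The summed ratio was 0.899 at 2 months and 0.537 at 6 months, so the 2-month sum does not show the rise of these 3 markers. The 3 lung markers measured were at 0 in the 2-month control and summed to 1144 in the 2-month csPIMT-/- pool. Summed skeletal muscle markers, mostly Acta1, were at 5.25 and 3.88 times control at 2 and 6 months. At 2 months, however, 3 of the 6 were past 2-fold lower and 1 was past 2-fold higher, while at 6 months all 6 were higher. Summed leukocyte markers were at 2.30 and 1.35 times control, fibroblast markers at 0.712 and 1.40 times, and Alas2, the erythroid marker measured, at 0.604 and 4.30 times. In such bulk tissue, fewer cells of a type and less RNA per cell cannot be told apart. The part of these markers in the synthetase values was not tested.

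In the 2-month controls the cytosolic transcripts had a median level of 893 normalized counts per kilobase of transcript, from 288 for Cars to 2085 for Gars. The mitochondrial ones had a median level of 372 per kilobase, from 93.2 for Mars2 to 1369 for Lars2. The mitochondrial transcripts were thus the less abundant set in hearts with PIMT.

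At 2 months members of both classes lay on both sides of control, with 10 of 16 mitochondrial and 11 of 20 cytosolic synthetases above it. The median ratio of normalized counts, csPIMT-/- over control, was 1.70 over the 16 mitochondrial and 1.16 over the 20 cytosolic genes, beside 1.0 over all genes. The mitochondrial median was 1.29 and the cytosolic one 1.11 with the GC trend subtracted. On the deposited scale 4 members passed 2-fold: Rars2 was lower, and Vars, Lars2 and Pars2 were higher. With size factors of the 2 libraries alone, the Vars ratio at 2 months was 1.99 and the Lars2 ratio at 2 months 1.97, both short of 2-fold, and the Eprs ratio at 2 months was 0.493, past it. The counts were 1 of 36 lower, where 22.6% of all genes passed 2-fold lower, and 3 of 36 higher, where 17.6% passed 2-fold higher. Counting intervals lay wholly above 1 for 11 cytosolic and 9 mitochondrial genes, wholly below 1 for 9 and 5, and spanned 1 for Hars2 and Iars2. Between the 2 control pools, they lay wholly above 1 for 6 and 9 genes and wholly below 1 for 8 and 2. An interval that excludes 1 is thus not by itself a genotype result.

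At 6 months the order of the 2 sets was the other way round. The median ratio was 1.04 over the mitochondrial and 1.24 over the cytosolic genes, again beside 1.0 over all genes. Against the 2-month control instead, the 6-month csPIMT-/- pool had medians of 1.25 and 1.05, so this order rests on which control pool is used. At this age 11 members passed 2-fold. Dars, Eprs, Farsb and Rars of the cytosol and Hars2, Rars2, Wars2 and Yars2 of the mitochondrion were lower, 8 of 36, where 24.9% of all genes passed 2-fold lower. Sars, Vars and Lars2 were higher, 3 of 36, where 17.1% passed 2-fold higher. The 2 control pools, 6 months over 2 months, showed how far pools of 1 genotype lay apart, age included: 0 of 36 members passed 2-fold in either direction (4.96% of all genes lower and 9.84% higher), and the medians were 1.02 and 1.10 for cytosolic and mitochondrial genes. The lowest of these ratios was that of Lars2 (0.577) and the highest were those of Iars2 (1.42) and Hars2 (1.41).

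**Figure D1:**
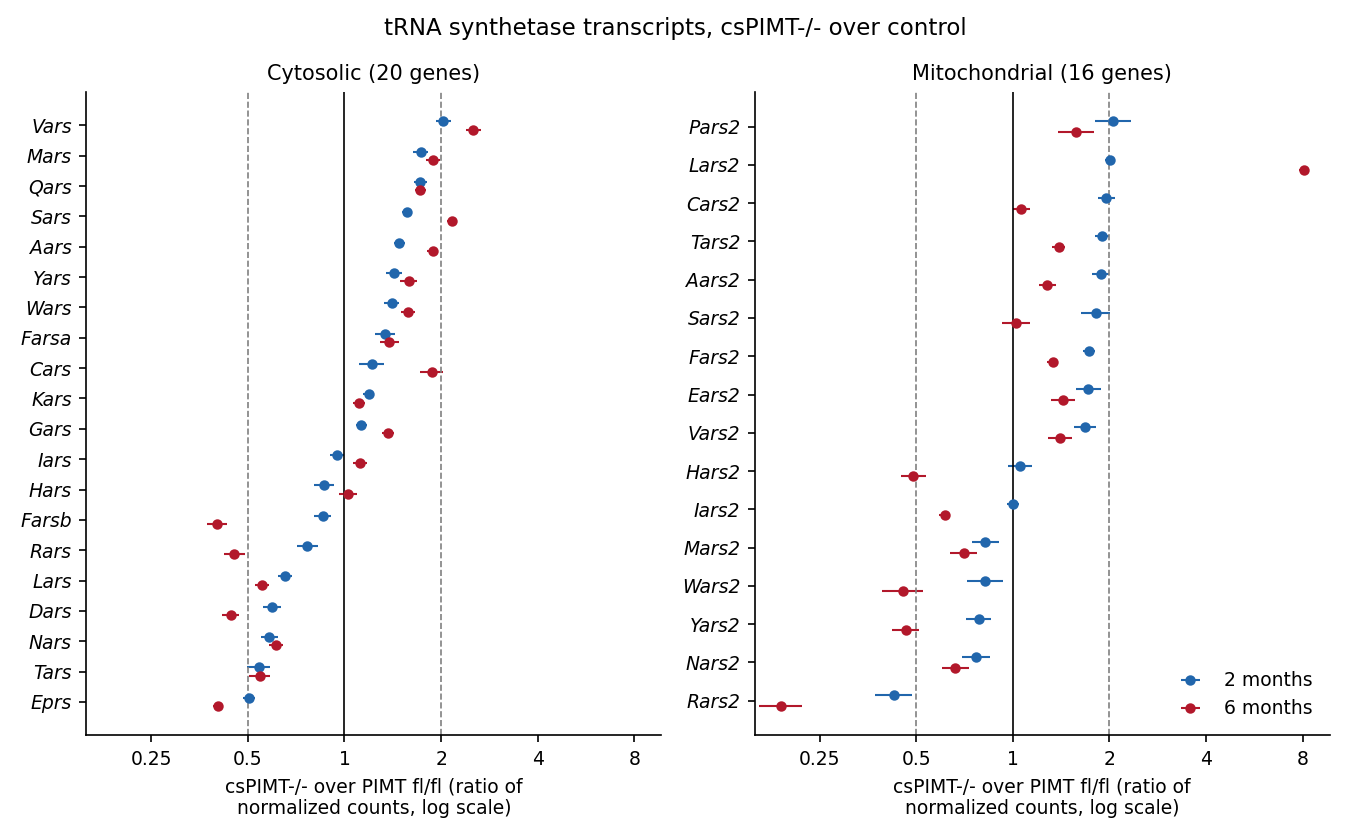
Ratio of normalized counts, csPIMT-/- over PIMT fl/fl, for each cytosolic (left) and mitochondrial (right) synthetase on a log axis, with blue points for 2 months and red points for 6 months. Bars are 95% counting intervals without animal spread, dashed lines mark 2-fold, and genes are sorted by the 2-month ratio. Red points lie left of blue ones for 15 of 16 mitochondrial genes, while Lars2 is the exception at 8.05.

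Over both ages, limma with age in the model called 9 of the 36 members at an adjusted p under 0.05. Of the cytosolic genes 3 fell and 4 rose, and of the mitochondrial genes 1 fell and 1 rose, where 16.9% of all genes fell and 10.6% rose. The model had 4 libraries and 1 residual degree of freedom, so the disagreement between the ages stands in for replicate spread. The 9 calls did not hold when any 1 of the 4 libraries was left out (genotype alone). Such a fit has a lone library in 1 arm and took the call from nearly all genes. It therefore cannot decide whether the synthetase calls are less secure than others. The 9 calls were also lost after a GC trend described further on was subtracted, where 0 of 14133 genes were called.

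Among the 8 enzymes of the multisynthetase complex, values went both ways. The median ratio was 0.858 at 2 months and 0.831 at 6 months, against 1.28 and 1.48 for the 12 cytosolic genes outside it. With the all-gene GC trend subtracted, the medians were 1.20 and 1.21 in the complex and 1.07 and 1.18 outside it, so the lower values of the complex did not hold. Eprs, the double enzyme for glutamate and proline, had 6697 and 9275 normalized counts in the 2-month and 6-month control pools and 3371 and 3744 in the csPIMT-/- pools. Both csPIMT-/- values lay below both controls, with ratios of 0.503 (0.482 to 0.526) and 0.404 (0.389 to 0.419) and a log2 difference of -1.15 (SE 0.21, limma adjusted p = 0.021). Dars, the aspartate enzyme, had 2857 and 3605 in the controls and 1700 and 1592 in the csPIMT-/- pools. Its groups did not overlap either, with ratios of 0.595 (0.558 to 0.634) and 0.442 (0.416 to 0.468) and a log2 difference of -0.96 (SE 0.23, limma adjusted p = 0.035).

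Rars, which charges arginine tRNAs, had 1731 and 2117 normalized counts in the controls and 1325 and 960 in the csPIMT-/- pools. It passed 2-fold only at 6 months, with ratios of 0.766 (0.710 to 0.825) and 0.454 (0.420 to 0.490), and it missed the limma threshold (adjusted p = 0.092). Lars, the leucine enzyme, had ratios of 0.653 and 0.553 and also missed it (limma adjusted p = 0.054).

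Mars and Qars, in the same complex, lay on the other side. Mars, the methionine enzyme, had 2201 and 2243 normalized counts in the controls and 3806 and 4235 in the csPIMT-/- pools, and Qars, the glutamine enzyme, had 3057 and 3487 against 5266 and 6008. All csPIMT-/- values were above all controls, with log2 differences of 0.85 (SE 0.21, limma adjusted p = 0.036) for Mars and 0.78 (SE 0.20, limma adjusted p = 0.041) for Qars. The ratio of Qars was 1.72 at either age. Kars and Iars stayed between 0.949 and 1.19 at both ages. Mars overlaps Ddit3 on the opposite strand, and whether strand was used in the counting is not given in the sources used here. Ddit3, a stress response factor, had ratios of 1.06 and 0.951.

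The scaffold proteins of the complex were measured beside the enzymes. Aimp1 had ratios of 0.685 and 0.581 (limma adjusted p = 0.080), Aimp2 of 1.95 and 1.66 (limma adjusted p = 0.045, higher) and Eef1e1 of 0.704 and 1.11 (limma adjusted p = 0.70). Thus 1 of the 3 scaffold genes rose, and of the 8 enzymes 2 fell and 2 rose, where 16.9% of all genes fell and 10.6% rose.

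Outside the complex, Vars and Sars rose and Tars fell. Vars, which charges valine tRNAs, had 1960 and 1787 normalized counts in the controls and 3984 and 4501 in the csPIMT-/- pools. With ratios of 2.03 (1.93 to 2.15) and 2.52 (2.39 to 2.66) on the deposited scale it was past 2-fold at both ages, and its log2 difference was 1.18 (SE 0.21, limma adjusted p = 0.021). Sars, the serine enzyme, had 4248 and 4346 in the controls and 6649 and 9407 in the csPIMT-/- pools, ratios of 1.57 (1.51 to 1.63) and 2.16 (2.09 to 2.24), and a log2 difference of 0.88 (SE 0.22, limma adjusted p = 0.041).

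Tars, the threonine enzyme, had 1860 and 1937 normalized counts in the controls and 1006 and 1056 in the csPIMT-/- pools. It was lower by nearly the same amount at both ages, with ratios of 0.541 (0.498 to 0.586) and 0.545 (0.505 to 0.587) and a log2 difference of -0.88 (SE 0.22, limma adjusted p = 0.039). Tarsl2, the related threonine enzyme outside the member list, fell further, with ratios of 0.381 and 0.122 (limma adjusted p = 0.024). Nars, for asparagine, had ratios of 0.583 and 0.612 and lay at the threshold without passing it (limma adjusted p = 0.050).

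The cytosolic phenylalanine enzyme is built from an alpha subunit, encoded by Farsa, and a beta subunit, encoded by Farsb, and these 2 genes had ratios on opposite sides of 1. Farsb had 2509 and 2633 normalized counts in the controls and 2145 and 1056 in the csPIMT-/- pools. Its value was low in the 6-month csPIMT-/- pool alone, with ratios of 0.855 (0.805 to 0.908) and 0.401 (0.373 to 0.431; limma adjusted p = 0.12). Farsa had ratios of 1.34 (1.25 to 1.44) and 1.38 (1.29 to 1.48; limma adjusted p = 0.18). After subtraction of the GC trend, Farsb was at 1.19 and 0.586 and Farsa at 1.41 and 1.40, so that both were above 1 at 2 months.

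Of the other cytosolic genes, Aars, Yars, Wars, Cars and Gars had ratios above 1 at both ages, from 1.13 for Gars at 2 months to 1.88 for Aars at 6 months, with limma adjusted p from 0.055 to 0.30. The 5 genes whose windows held the amino acid response motif lay on both sides of 1, with Aars, Gars and Yars above it at both ages, Tars below it at both ages, and Iars at 0.949 and 1.12. By catalytic class, the 9 cytosolic class I enzymes had median ratios of 1.40 and 1.58 and the 10 class II enzymes 0.996 and 1.07, which became 1.11 and 1.28 against 1.15 and 1.17 with the GC trend subtracted. Among the mitochondrial enzymes the order was the other way round, with 0.999 and 0.703 for the 9 of class I and 1.81 and 1.28 for the 7 of class II, which became 1.28 and 0.842 against 1.30 and 1.02 with that trend subtracted.

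**Figure D2:**
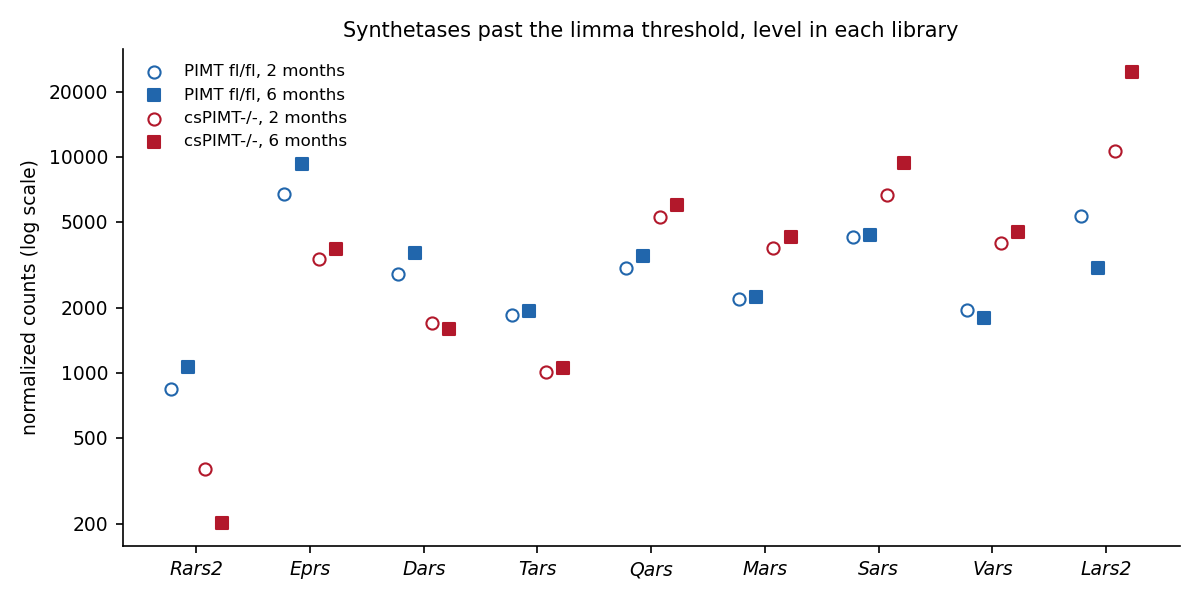
Normalized counts (log axis) in each of the 4 libraries for the 9 synthetases past the limma threshold, with blue for PIMT fl/fl, red for csPIMT-/-, open circles for 2 months and filled squares for 6 months. For each gene both red points lie on one side of both blue points. The genes were chosen by limma on these same values, so this adds no support. For Rars2 and Lars2 the red points lie farther apart than for the cytosolic genes.

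Of the mitochondrial enzymes, Rars2 was the lowest. Rars2, the mitochondrial arginine enzyme, had 843 and 1066 normalized counts in the controls and 359 and 202 in the csPIMT-/- pools. It was past 2-fold at both ages, with ratios of 0.426 (0.372 to 0.486) and 0.189 (0.162 to 0.221), and its log2 difference was -1.81 (SE 0.37, limma adjusted p = 0.026). It and its cytosolic counterpart Rars were thus both below 1 at both ages.

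Lars2, the mitochondrial leucine enzyme, had the highest member value over both ages. There were 5330 and 3074 normalized counts in the controls and 10696 and 24756 in the csPIMT-/- pools. The ratios were 2.01 (1.94 to 2.07) and 8.05 (7.77 to 8.35), and the log2 difference was 2.01 (SE 0.48, limma adjusted p = 0.035). The 2 controls differed as well, the 6-month pool being at 0.577 of the 2-month pool, and against that lower control the Lars2 ratio at 2 months was 3.48.

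Rn45s, the ribosomal RNA precursor, had 268375 and 183979 normalized counts in the controls and 581693 and 541237 in the csPIMT-/- pools, ratios of 2.17 and 2.94. Like Lars2 it was higher in both csPIMT-/- pools than in both controls, but between the csPIMT-/- pools Lars2 was higher at 6 months and Rn45s lower. In the reference, the Lars2 transcript of 3894 bases was compared with 14 transcripts of loci picked by symbol as like ribosomal RNA. Rn45s was not among them, so bases shared with Rn45s were not looked for. Lars2 shares 72 bases (bases 3278 to 3349, after the stop codon that ends at base 2908, 98.6% identity) with Gm15564, a locus of that set. Gm15564 is not among the genes used here, and no other locus of the set matched. The part of these bases in the Lars2 counts was not tested.

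Pars2, the mitochondrial proline enzyme, had 355 and 367 normalized counts in the controls and 726 and 577 in the csPIMT-/- pools, with ratios of 2.05 (1.80 to 2.33) and 1.57 (1.38 to 1.79; limma adjusted p = 0.080). Hars2, for histidine, had 1070 and 1514 in the controls and 1131 and 742 in the csPIMT-/- pools, a ratio of 1.06 (0.969 to 1.15) at 2 months and 0.490 (0.448 to 0.535) at 6 months (limma adjusted p = 0.32). In Hars2, therefore, the 2 genotypes overlapped. Its first bases overlap Hars, which lies on the opposite strand.

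Wars2 and Yars2, for tryptophan and tyrosine, were less than 2-fold lower at 2 months and past 2-fold lower at 6 months. Wars2 had 545 and 579 normalized counts in the controls and 446 and 263 in the csPIMT-/- pools, with ratios of 0.819 (0.717 to 0.933) and 0.455 (0.392 to 0.527; limma adjusted p = 0.16). Yars2 had 1189 and 1306 in the controls and 932 and 605 in the csPIMT-/- pools, with ratios of 0.784 (0.716 to 0.857) and 0.464 (0.421 to 0.511; limma adjusted p = 0.11). For both genes, all csPIMT-/- values were under all controls.

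The other 10 mitochondrial genes passed 2-fold at neither age. Aars2, Cars2, Ears2, Fars2, Sars2, Tars2 and Vars2 had ratios between 1.68 and 1.96 at 2 months and between 1.02 and 1.43 at 6 months, and Iars2, Mars2 and Nars2 had ratios between 0.766 and 0.999 at 2 months and between 0.614 and 0.703 at 6 months. Their limma adjusted p ranged from 0.070 to 0.33. The 3 genes with the NRF1 motif in their windows also lay on both sides of 1, with Vars2 at 1.68 and 1.40 and Rars2 and Wars2 below 1 at both ages.

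The ratio was lower at 6 than at 2 months for 15 of the 16 mitochondrial synthetases, the exception being Lars2, and for 6 of the 20 cytosolic ones, where 51.7% of the genes with reads in all libraries had the lower ratio at 6 months. The median ratio at 6 months was 0.708 of that at 2 months over the mitochondrial genes and 1.07 times that at 2 months over the cytosolic ones. Of the mitochondrial genes, 13 of 16 were higher in the 6-month than in the 2-month control (median 1.10). Over all genes 8943 were higher and 6622 lower there (median 1.05). With the GC trend subtracted, these control medians were 1.09 for the mitochondrial genes and 0.997 for all genes. Counting intervals between the controls lay wholly above 1 for 9 mitochondrial genes and wholly below 1 for 2, so the control arm has a part in the lower ratios. Between the csPIMT-/- pools, 15 of 16 were lower at 6 months (median 0.768), where 7231 of all genes were lower and 8342 higher (median 1.04). The 6 cardiomyocyte markers moved in a similar way. Their ratio was lower at 6 months for 5 and higher for 1, and between the csPIMT-/- pools 4 were lower and 2 higher (median 0.813). The part of cardiomyocyte content in the change was not tested. The mitochondrial genes with the lowest change were Rars2 and Hars2, whose ratios at 6 months were 0.445 and 0.464 of those at 2 months. With 1 pool per group this change could not be tested, and the 2-month csPIMT-/- pool is also the one with the highest levels of 4 of the 5 atrial markers (Nppa excepted) and of 3 of the 5 brown fat markers, whose part in the change was not tested.

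Other genes of mitochondrial translation were set beside them. All 11 mitochondrial translation factors measured had the lower ratio at 6 months, as had 58 of 76 mitochondrial ribosomal protein genes, 7 of 9 tRNA maturation genes, and Gatc, Qrsl1 and Mtfmt, which act in charging glutamine or initiator tRNAs. Of the 6 cytosolic elongation factors, 2 had.

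**Figure D3:**
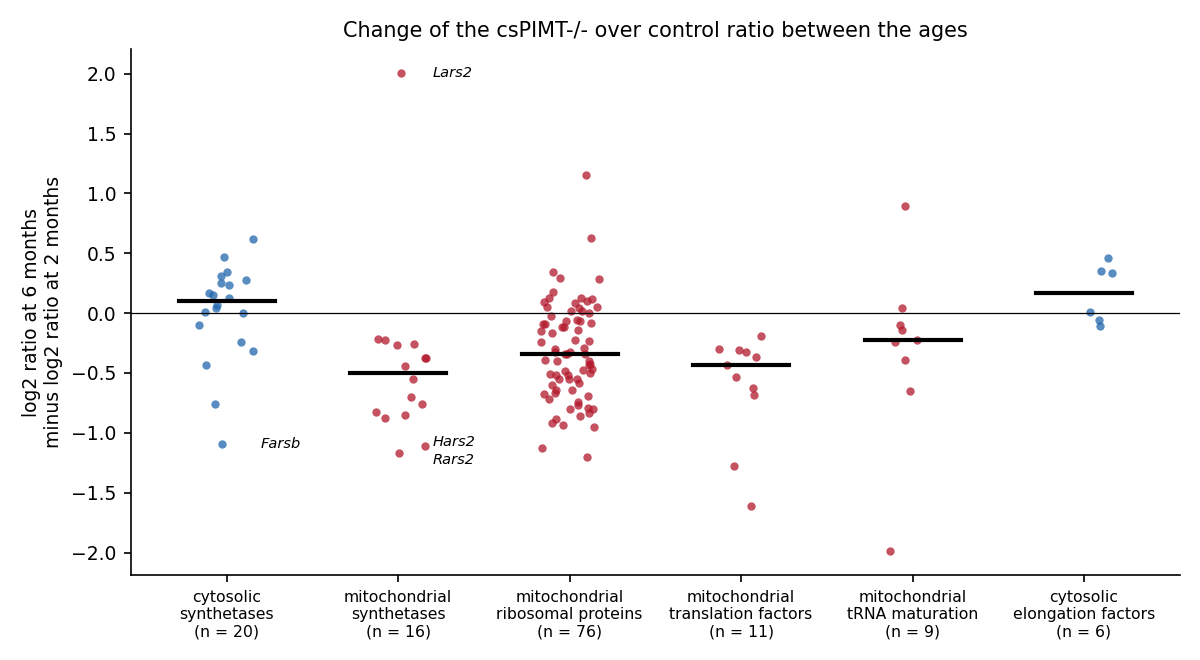
Log2 ratio (csPIMT-/- over control) at 6 months minus that at 2 months, 1 point per gene, for both synthetase classes and 4 lists of related genes, with black bars for medians and blue and red for cytosolic and mitochondrial genes. The mitochondrial synthetases lie below 0 except Lars2, while the cytosolic ones lie around 0, with 6 of 20 below it.

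The 17 pairs of cytosolic and mitochondrial genes for the same amino acid set out the same ratios gene by gene, and so are no separate support. Eprs is paired both with Ears2 and with Pars2, and Fars2 both with Farsa and with Farsb. At 2 months the mitochondrial partner had the higher ratio in 12 of 17 pairs, and the median of the mitochondrial over the cytosolic ratio was 1.26. At 6 months it had the higher ratio in 6 of 17, with a median of 0.570. For 6 pairs (Aars, Cars, Farsa, Hars, Iars and Sars with their mitochondrial partners) the higher partner switched from the mitochondrial to the cytosolic gene, and for 0 pairs the other way. The serine pair went from 1.16 to 0.473, while the leucine pair, with Lars2, went from 3.07 to 14.6. Against the 2-month control instead, the 6-month ratio of Fars2 (1.48) stayed above that of Farsa (1.28). The Aars, Cars, Hars, Iars and Sars pairs kept the switch with that control.

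Summed over all members, the cytosolic levels were 59181 and 61707 normalized counts in the controls and 64072 and 68486 in the csPIMT-/- pools, ratios of 1.08 and 1.11. The summed mitochondrial levels were 27360 and 29325 in the controls and 41415 and 49383 in the csPIMT-/- pools, ratios of 1.51 and 1.68. Without Lars2, left out after its values were seen, the mitochondrial ratios were 1.39 and 0.938, so the 6-month total rests on that gene.

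Genes that act before or after charging were read over both ages against the same shares of all genes, 16.9% lower and 10.6% higher. Of the 11 mitochondrial translation factors 3 fell, namely Mtif2 (initiation; ratios 0.290 and 0.120, limma adjusted p = 0.016), Mtrf1l (release; 0.210 and 0.169, limma adjusted p = 0.016) and Guf1 (elongation; 0.253 and 0.157, limma adjusted p = 0.014), while Ict1 had the highest mean ratio (1.74 and 1.53, limma adjusted p = 0.059). Of 76 mitochondrial ribosomal protein genes 8 fell and 11 rose, from Mrpl1 (0.176 and 0.166, limma adjusted p = 0.014) to Mrpl12 (3.08 and 1.93, limma adjusted p = 0.023). Of the 9 tRNA maturation genes, Trnt1, which adds the CCA end that synthetases charge, fell (0.297 and 0.269, limma adjusted p = 0.015), and Gtpbp3, which modifies the wobble base, rose (2.15 and 1.63, limma adjusted p = 0.044).

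Of the 6 cytosolic elongation factors, 2 rose: Eef1a2 (2.18 and 2.03, limma adjusted p = 0.031) and Eef1d (1.90 and 1.83, limma adjusted p = 0.031). The lowest, Eef1a1, had ratios of 0.858 and 1.08 (limma adjusted p = 0.89). Gatc had ratios of 0.576 and 0.522 (limma adjusted p = 0.080), Qrsl1 of 0.831 and 0.804 (limma adjusted p = 0.36) and Mtfmt of 1.08 and 0.804 (limma adjusted p = 0.82). Of 6 synthetase-like and editing genes, Tarsl2 and Prorsd1 (0.498 and 0.242, limma adjusted p = 0.039) fell, and the highest, Aarsd1, had ratios of 1.51 and 1.28 (limma adjusted p = 0.16).

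Of 23 genes of the ATF4 and amino acid response, 7 rose, where 10.6% of all genes did. The median ratio was 1.65 at 2 months and 1.69 at 6 months, and 1.25 and 1.53 with the GC trend subtracted. The 7 were Atf5, Chac1, Shmt2, Slc7a5, Slc3a2, Eif4ebp1 and Gdf15, chosen here because they were called. Gdf15, a secreted stress hormone, had 459 and 326 normalized counts in the controls and 1837 and 7959 in the csPIMT-/- pools (limma adjusted p = 0.021). Atf4 itself had ratios of 0.731 and 1.43 (limma adjusted p = 0.94), the lowest mean ratio was that of the arginine carrier Slc7a1 (0.639 and 0.829, limma adjusted p = 0.17), and the highest that of Fgf21 (0.865 and 5.28 normalized counts in the controls and 16 and 32.3 in the csPIMT-/- pools, limma adjusted p = 0.072). Over the same libraries, 3 of the 20 cytosolic synthetases fell and 4 rose.

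Of the members, 10 are overlapped by another protein-coding gene of the files, such as Aars by Exosc6 on the same strand, and reads from the shared bases may have been left out or split in the counting.

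Transcript GC content moved with the direction of the members. The 7 cytosolic genes below 1 at both ages (Dars, Eprs, Farsb, Lars, Nars, Rars and Tars) had transcripts of 41.2% to 47.2% GC, and the 11 above 1 at both ages had 47.3% to 60.9%. The 6 mitochondrial genes below 1 at both ages had 38.8% to 47.2%, and the 9 above 1 had 48.2% to 60.1%. Across the 36 members GC content and the 2-month and 6-month ratios had Spearman's rho values of 0.812 and 0.820, where members share the same 4 libraries and genes are not replicates. Across all 14117 and 14127 genes with a GC value it was 0.568 and 0.594, and between the 2 control pools it was -0.248.

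With the all-gene GC trend subtracted, 2 members lay past 2-fold at 2 months and 3 at 6 months. These were Cars2 (2.29) and Mars2 (2.32) at 2 months, and Lars2 (6.81), Mars2 (2.13) and Rars2 (0.370) at 6 months. Mars2, the mitochondrial methionine enzyme, has a longest annotated transcript of 11294 bases at 38.8% GC, and its deposited values gave ratios of 0.822 and 0.703. The median ratios became 1.11 and 1.18 for the cytosolic and 1.29 and 0.929 for the mitochondrial genes, and the ratio was again lower at 6 months for 15 of 16 mitochondrial genes and for 8 of 20 cytosolic ones. The subtraction moved 6 cytosolic and 5 mitochondrial genes to the other side of 1 at 2 months (Aars and Cars to below it; Dars, Farsb, Iars, Rars, Iars2, Mars2, Nars2, Wars2 and Yars2 to above it), and 2 and 5 at 6 months (Hars, Aars2, Sars2 and Vars2 to below it; Dars, Mars2 and Nars2 to above it). With that trend subtracted, limma called 0 members and 0 of 14133 genes, with 1690 lower and 1864 higher genes at an unadjusted p under 0.05. Whether base composition or PIMT set the direction of a member cannot be told apart in these 4 libraries.

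**Figure D4:**
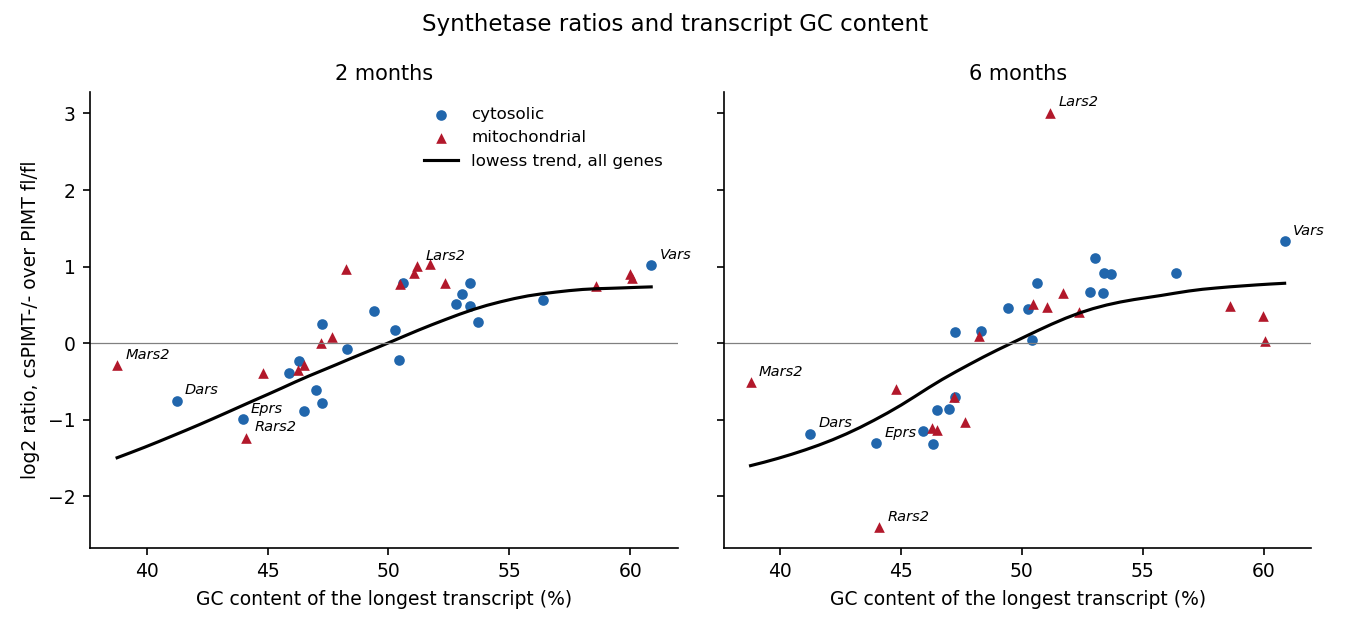
Log2 ratio of each cytosolic (blue circles) and mitochondrial (red triangles) synthetase against the GC content of its longest transcript in percent, at 2 months (left) and 6 months (right), with the lowess trend of all genes as a black line. Lars2 lies far above the line at 6 months, Mars2 above it at both ages, Cars2 above it at 2 months and Rars2 below it. At 2 months 15 of 16 mitochondrial and 13 of 20 cytosolic genes lie above the line, and at 6 months 8 and 13 do.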

How the data were processed

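RNA from whole hearts was enriched for poly(A) RNA by the authors and sequenced as 4 directional libraries, 1 per group. Per the labels and the study's methods, reads were aligned to mm10, counted per gene with HTSeq 0.6.1p1 and normalized with DESeq2. The deposited values are normalized counts (a signal, unrounded). Within a library all values were integer multiples of 1 step (0.865 to 1.23 per read, deviation at most 4.9e-09 reads, 100% of values whole), so whole reads were recovered. One header, that of csPIMT-/- at 6 months, says read counts, yet the values there were scaled too. Depth per library was 29823073 to 40705783 reads.

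Ratios were taken from the deposited values, with exact (Clopper-Pearson) 95% counting intervals, and 2-fold was the limit for a call. Genotype over both ages was fitted with limma 3.58.1 (R 4.3.3) on log2(value + 1) with age and a mean trend, with Benjamini-Hochberg adjustment over 15589 genes with at least 10 reads in at least 1 library and a threshold of 0.05, so fold changes of low genes are understated. The script was tested on simulated data. edgeR 4.0.16, DESeq2 1.42.0, other scalings, filters and pseudocounts, the other control, single libraries left out and a lowess GC trend (span 0.3) were alternatives. GC content and lengths came from the longest GENCODE M21 transcript, found for 90.7% of genes and 36 of 36 members. All members were named, and of related lists the lowest and highest gene by mean ratio, lists of up to 5 in full; genes beyond these were named for their calls. Gatb, Pet112 and C12orf65 were not analysed here, and 1 gene of the related lists is not reported here. The members and lists were chosen with earlier results of these data known.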

Additional observations from a re-analysis of the deposited data

Results flagged for a closer look

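Iars, the cytosolic isoleucine enzyme, had its 2 counting intervals on opposite sides of 1. It had 3395 and 3223 normalized counts in the control and csPIMT-/- pools at 2 months, a ratio of 0.949 (0.903 to 0.998), and 2937 and 3282 at 6 months, a ratio of 1.12 (1.06 to 1.17). The log2 ratio was 0.24 higher at 6 than at 2 months. With 1 library per group the difference between the ages was not tested.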

How the results depend on the processing

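No paired analysis was possible because each group had 1 library. Other scalings (size factors of the 2 libraries compared, TMM) and a pseudocount of 5 moved none of the 72 member ratios beyond counting error. A scaling moves all ratios of a comparison by 1 factor. No filter and a 100-read filter could not move them, as every member value was at least 194 reads. Size factors of the 2 libraries left 3 members past 2-fold at 2 months (Vars and Lars2 lost, Eprs gained). With the control of the other age, the cytosolic median became 1.33 and 1.05 (2 and 6 months), the mitochondrial median 1.48 and 1.25, and the members past 2-fold at 6 months 6; with both controls summed, the cytosolic medians became 1.25 and 1.14 and the 6-month mitochondrial median 1.19. The order of the classes at 6 months thus depends on which control is used. With the GC trend subtracted, the mitochondrial medians became 1.29 and 0.929, the members past 2-fold 2 and 3, and 6 cytosolic and 5 mitochondrial genes at 2 months, and 2 and 5 at 6 months, changed side of 1; of those called before, Dars turned to a ratio of 1.14 at 6 months and a log2 difference of 0.34 over both ages (limma adjusted p = 0.36). The limma counts of 4 lower and 5 higher became 0 and 0 with the GC trend subtracted and without the mean trend. Of all genes, 0 were called in either of these settings. The member calls were also lost with each library left out in turn, where nearly all genes lost their calls. The lone library of an arm is then assumed to vary like the other arm, and the cause was not tested. The mitochondrial ratio was lower at 6 months in 15 of 16 genes under every scaling and pseudocount tried and with the GC trend subtracted. The cytosolic one was lower in 6 to 9 of 20. With the control of the other age, Iars2 (0.706 at 2 and 0.869 at 6 months), Nars2 (0.696 and 0.729) and Tars2 (1.59 and 1.66) also had the higher ratio at 6 months, beside Lars2. The other mitochondrial genes kept the lower one. The limma counts were 5 and 5 with edgeR and 5 and 6 with DESeq2.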
